A study of Mus musculus with 24 samples.

Results

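The comparison described here is the change, between 10 days and 12 weeks of age, in the ratio of gene expression in islets of single NOD mice to that in a pool of control islets. It takes in 12 of the 24 arrays of the series, 6 at each of the 2 ages, and all 18071 genes that could be tested. The mice at both ages were females of the strain NOD/LtJ, and their islets were freed from the pancreas by collagenase digestion. The controls at each age were 6 females of the same age and of the strain NOD.B10Sn-H2b/J, called NOD.B10 below, whose islets the labels give as a pool. The RNA of 1 NOD mouse was labelled with Cy5 and set against the Cy3-labelled pool of its own age on each array. A value of log2(NOD/pool) above 0 therefore means more signal in the NOD mouse than in the pool, and a rise between the ages means that this ratio was higher at 12 weeks. All arrays had the same dye orientation. A constant dye effect of a probe drops out of the change between ages, but stays in the side of 0 at any 1 age. The labels are taken here to mean that the 6 arrays of an age share 1 pool, though they do not say whether more than 1 was made. On that reading the spread between control mice was not measured, and a change of the ratio holds the change of the pool as well as that of the NOD mice. The SE and p of a ratio below therefore hold the spread between NOD mice and between arrays, and leave out that between control mice. The 4 week and 20 week arrays, 6 each, entered the model only to estimate the spread between mice.

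NOD mice develop autoimmune diabetes: lymphocytes, macrophages and dendritic cells gather around and then inside the islets, a lesion called insulitis, and the insulin-producing beta cells are lost over time. T cells that reach the islet release interferon gamma, which in neighbouring cells switches on the major histocompatibility complex (MHC), the immunoproteasome and chemokines such as Cxcl9. NOD.B10 mice carry the H2b haplotype of the MHC on a NOD background and do not develop the disease. Islets of very young mice still grow, and their cells divide and are embedded in more connective tissue than those of adults.

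A gene was called where its adjusted p in limma was under 0.05 and its ratio differed at least 2-fold between the ages. Of the 18071 genes tested, 1576 were called, which is 8.72% and is the background against which the counts below are read. The ratio rose for 904 genes (5.00%) and fell for 672 genes (3.72%), so 57.4% of the calls were rises. Under median centring in place of loess normalization 81.3% of 1383 calls were rises, so the balance of the directions depends on the scaling. With no fold floor 7791 genes (43.1%) passed. The median change over all genes was 0.01 on the log2 scale. In 1352 of the called genes the 6 mice of 1 age did not overlap with those of the other, and such separation was seen in 25.1% of all genes tested. For most called genes the mean ratio crossed 0. It was below 0 at 10 days and above 0 at 12 weeks for 749 of the 904 rises, and the reverse held for 577 of the 672 falls. All 6 mice of each age lay on opposite sides of 0 for fewer genes, 318 of the 904 rises and 245 of the 672 falls.

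The share of probes detected over background by the scanner's flag ranged from 49.1% to 62.9% in the NOD channel at 10 days and from 52.2% to 62% at 12 weeks. For the pool it was 44% to 48% at 10 days and lower at 12 weeks, 39.3% to 43.6%. Across genes, the median correlation of the ratios was 0.69 between 10 day mice and 0.81 between 12 week mice. Replicates 2 and 4 at 10 days had the lowest weights of the 12 arrays (0.484 and 0.451, where 1 is the average array), and without both of them 1498 genes were called. No slide carried both ages, so slide and age cannot be told apart. The probes reported for the islet hormone genes Ins1, Ins2, Gcg and Sst were over background in both channels on all 12 arrays.

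The 2 channels were also read separately, after scaling the arrays to each other. In the NOD channel alone 1016 genes (5.62%) were called by limma, 674 higher (3.73%) and 342 lower (1.89%) at 12 weeks. The pool channel is taken as 1 sample per age, and its change is given with no test. Its median SD over genes between the 6 arrays of an age was 0.07 at 10 days and 0.09 at 12 weeks. Some probes varied far more: between the 10 day arrays the pool signal of Ins2 spanned 1.81, that of Gcg 1.63 and that of Ins1 1.09 on the log2 scale. Of the 904 genes whose ratio rose, 315 were also called higher in the NOD channel, 27 were called lower there, and 562 were not called there. The pool signal was at least 2-fold lower at 12 weeks for 399 of these 904 genes. Of the 672 genes whose ratio fell, 86 were called lower in the NOD channel, 9 were called higher, and 577 were not called. The pool signal was at least 2-fold higher at 12 weeks for 380 of the 672.

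**Figure D1:**
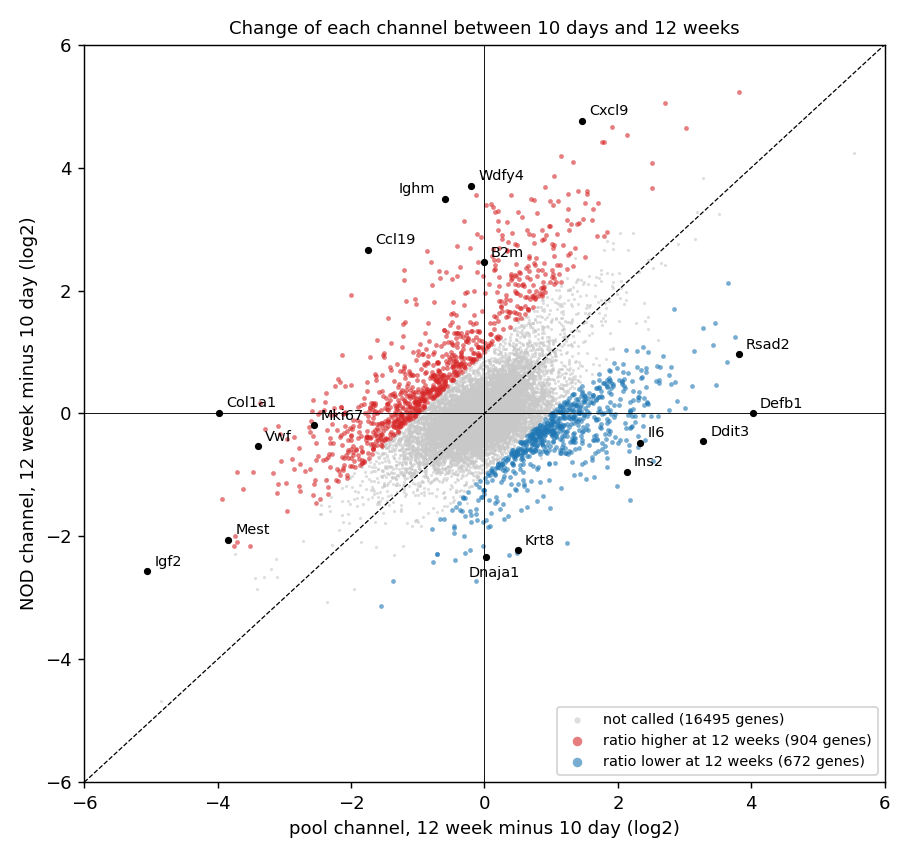
Change of the pool channel (x axis) and of the NOD channel (y axis) from 10 days to 12 weeks on the log2 scale, 1 point per gene, with the 904 genes of risen ratio in red and the 672 of fallen ratio in blue. The dashed line marks equal change in both channels. Cxcl9, Wdfy4 and B2m lie high on the y axis, Col1a1 and Vwf lie far to the left near 0 on the y axis, and Defb1, Ddit3 and Rsad2 lie far to the right.

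The sequences below show the upstream regions of 4 genes taken as examples from the interferon and MHC lists. Each holds the 250 bases before the gene's start, 5′ to 3′ in the direction of the gene, from RefSeq on GRCm38.p6. Capitals mark the match to a short motif searched on both strands. For B2m (chr2:122147437-122147686, plus strand) and Rsad2 (chr12:26456453-26456702, minus strand) the motif is the core of the interferon-stimulated response element, GAAA and again GAAA with any 2 bases between them. In Rsad2 it lies on the opposite strand. For Irf8 (chr8:120736108-120736357, plus strand) it is the gamma-activated site TTCNNNGAA, which reads the same on both strands and was found at 2 positions. For H2-DMb1 (chr17:34152941-34153190, plus strand) it is the CCAAT box, the core of the Y box of MHC class II promoters, which lies on the opposite strand and so reads ATTGG here.
B2m: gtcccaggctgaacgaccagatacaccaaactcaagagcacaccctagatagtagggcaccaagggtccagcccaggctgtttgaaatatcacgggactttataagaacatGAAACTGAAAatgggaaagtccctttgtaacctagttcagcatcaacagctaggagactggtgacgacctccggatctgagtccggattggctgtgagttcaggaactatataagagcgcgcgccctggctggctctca
Rsad2: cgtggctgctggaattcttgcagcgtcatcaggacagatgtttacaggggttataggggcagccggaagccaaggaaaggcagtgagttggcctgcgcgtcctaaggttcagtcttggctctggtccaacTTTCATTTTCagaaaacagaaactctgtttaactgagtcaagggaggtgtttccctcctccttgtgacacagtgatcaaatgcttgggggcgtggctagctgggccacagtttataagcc
Irf8: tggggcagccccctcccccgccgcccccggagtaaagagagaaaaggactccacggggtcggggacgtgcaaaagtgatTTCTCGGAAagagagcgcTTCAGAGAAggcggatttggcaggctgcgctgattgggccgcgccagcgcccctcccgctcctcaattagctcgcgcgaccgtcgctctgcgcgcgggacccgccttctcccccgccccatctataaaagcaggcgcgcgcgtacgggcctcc
H2-DMb1: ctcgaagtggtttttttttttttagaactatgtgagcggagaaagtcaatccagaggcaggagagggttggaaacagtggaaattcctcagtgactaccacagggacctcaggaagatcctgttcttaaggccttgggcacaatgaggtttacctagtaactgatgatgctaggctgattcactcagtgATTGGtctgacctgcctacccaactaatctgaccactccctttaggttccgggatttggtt

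The response element core was found upstream of 3.04% of the 27025 genes in the promoter table, the gamma-activated site upstream of 7.18%, and the CCAAT box upstream of 34.5%. Of the 16 interferon gamma response genes with an entry, 10 held the response element core and 8 the gamma-activated site. Of 18 type I interferon response genes with an entry, 8 held the core and 3 the site. Of 8 MHC class II genes with an entry, 6 held the CCAAT box, as did 9 of 15 class I and immunoproteasome genes and 8 of 16 interferon gamma response genes. The core printed for B2m was found in 2 of the 15 genes of its own list. A match describes the letters and is not a bound site. B2m and Rsad2, which share the core, moved in opposite directions in the ratio, as given below, but not in the NOD channel. There B2m changed by 2.46 and Rsad2 by 0.96, the latter not called, with pool changes of -0.01 and 3.81. A link between a motif and a change was not tested.

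The 12 largest rises without overlap included genes of lymphocytes and myeloid cells and 2 collagen genes, which are described further below. The chemokine Ccl19, which guides T cells and dendritic cells in lymphoid tissue (its probe lies at chr4:42250432-42250491 on mm9), had ratios from -2.62 to 2.79 at 10 days, with a median of -1.40, and from 3.73 to 4.51 at 12 weeks, with a median of 3.84. The 10 day mice were spread widely, with replicates 3 and 5 far above the other four, and the 12 week mice lay close together above all of them. The change was 4.41 ± 0.696 (SE; adjusted p = 2.77e-05 in limma), of which 2.66 was the rise of the NOD channel, and the pool signal was lower by 1.74 at 12 weeks (a change of -1.74). Ighm, the heavy chain of immunoglobulin M, rose by 4.08 ± 0.755 (adjusted p = 0.000148), from ratios of -3.64 to 0.85 at 10 days to 2.01 to 3.70 at 12 weeks. Wdfy4, which serves cross-presentation in dendritic cells and is also expressed in B cells, rose by 3.91 ± 0.536 (adjusted p = 5.46e-06), and 3.71 of this was in the NOD channel. Cd52, a glycoprotein of lymphocyte surfaces, rose by 3.67 ± 0.651, and Cd79b, the signalling chain of the B cell receptor, rose by 3.50 ± 0.634.

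Other members of the 12 largest rises are known from leukocytes as well. S100a4, a calcium-binding protein of motile cells including macrophages, had ratios of -2.04 to 0.95 at 10 days and 2.17 to 3.66 at 12 weeks, a rise of 3.45 ± 0.445. Ncf4, a subunit of the phagocyte oxidase, rose by 3.38 ± 0.448 and Coro1a, an actin regulator of leukocytes, by 3.30 ± 0.558. Their pool signals differed little between the ages (changes of 0.02 and 0.10). Lyl1, a transcription factor of blood cell development, rose by 3.38 ± 0.509, with 2.18 in the NOD channel and a pool change of -1.21.

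**Figure D2:**
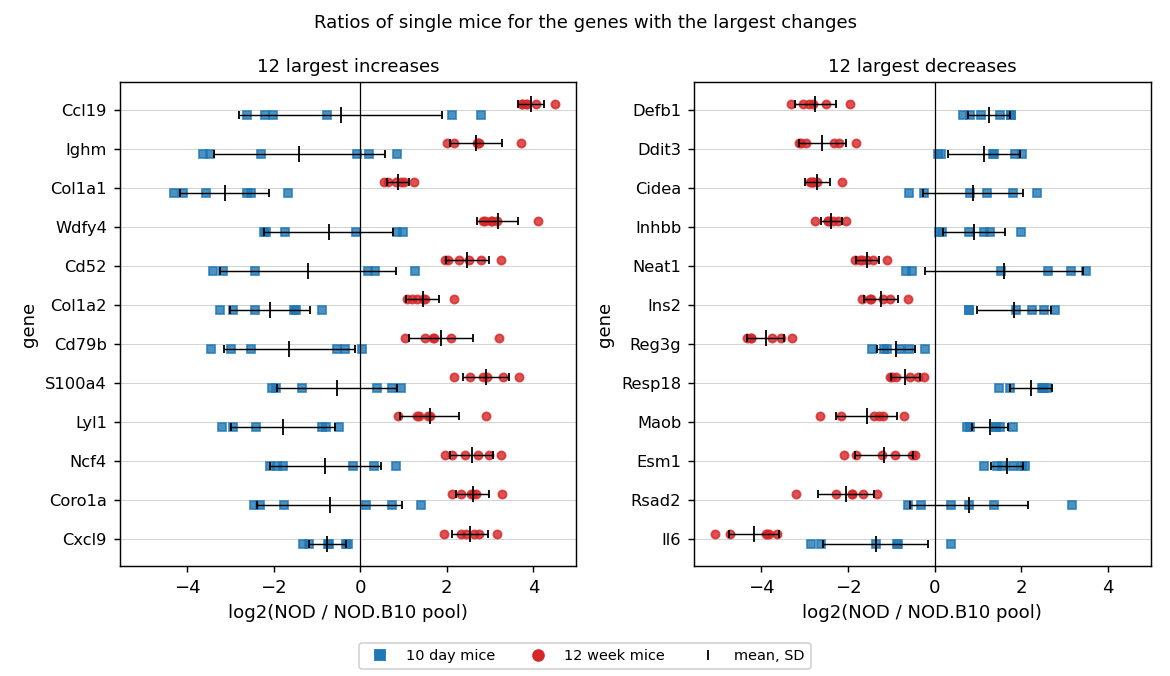
log2(NOD/pool) in each mouse (x axis) for the 12 called genes with the largest rise (left) and the 12 with the largest fall (right) whose ages do not overlap, with 10 day mice as blue squares, 12 week mice as red circles, and mean and SD in black. Ccl19, Ighm and Cd52 are spread widely among the 10 day mice and narrowly among the 12 week mice, and Col1a1 lies below 0 in every 10 day mouse.

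In the list of T cell genes 12 of 27 members tested rose and none fell, with a median change of 0.83. The pool signal at 12 weeks was not well above background on any array for 10 of these 27 genes. The same held for 4106 of all 18071 genes. With the scanner's processed signals 22 of 27 rose, with a median of 3.27, and 18 of 21 did so with the deposited table, with a median of 3.30. Cd6, a receptor that tunes T cell activation, had ratios of -1.51 to 0.82 at 10 days and 2.31 to 3.20 at 12 weeks, a rise of 3.27 ± 0.321 (adjusted p = 8.92e-08). A second, dimmer Cd6 probe, above background in the NOD channel on 8 of 12 arrays, changed by 0.09. Thy1, a surface protein shared by T cells and fibroblasts, rose by 2.81 ± 0.262, with 1.19 in the NOD channel and a pool change of -1.62. A dimmer Thy1 probe, also above background in the NOD channel on 8 of 12 arrays, changed by 0.35. Cd5, which dampens T cell receptor signals, rose by 2.78 ± 0.421 and Cd3d, a chain of the receptor complex, by 2.56 ± 0.49. Their NOD signals rose by 3.28 and 2.83. One 10 day mouse reached 2.22 for Cd3d, above the lowest 12 week mouse at 1.84. Cd8a, the coreceptor of cytotoxic T cells, rose by 1.16 ± 0.25 (adjusted p = 0.000668), and dimmer Cd8a probes changed by 0.23 and 0.87. Cd3e changed by 0.34 and Cd4 by 0.03, and neither was called. The Cd4 probe was not well above background in the pool channel on any array of either age.

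Of the B cell genes 9 of 18 rose and none fell, with a median of 0.80. The 12 week pool signal was not well above background on any array for 9 of the 18. With scanner signals 17 of 18 rose (median 3.21), and 12 of 13 did so with the deposited table (median 3.04). Pou2af1, a B cell coactivator, rose by 3.15 ± 0.505, from ratios of -2.32 to 0.36 to ratios of 1.77 to 3.57. In the list of lymphoid tissue organisation 6 of 21 members rose and none fell, against 14 risen and 1 fallen with scanner signals. Those that rose included Itgb7, an integrin chain that binds gut and lymphoid vessels (3.23 ± 0.544), and Ltb, lymphotoxin beta (2.90 ± 0.562), besides Ccl19.

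Of the genes of macrophages and dendritic cells 14 of 26 rose and 1 fell, with a median of 1.31 (2.21 with scanner signals). Aif1, a marker of macrophages, had ratios of -1.58 to 0.76 at 10 days and 1.91 to 2.45 at 12 weeks, a rise of 2.64 ± 0.343 (adjusted p = 2.93e-06). Lyz2, the lysozyme of myeloid cells, rose by 2.53 ± 0.71, but 10 day mice ranged from -4.49 to 0.35 and overlapped with the 12 week mice, which ranged from -0.42 to 1.19. A second Lyz2 probe changed by 0.73. Csf1r, the receptor for macrophage colony-stimulating factor, changed by 0.91 ± 0.227 and was under the 2-fold floor in the ratio. In the NOD channel it rose by 1.57. A second Csf1r probe changed by 0.36 in the ratio. The one member that fell was Cd14, a coreceptor for lipopolysaccharide, which was chosen here after its values were seen (a change of -2.05). None of the 4 neutrophil genes tested was called.

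Among natural killer and cytotoxic genes 5 of 15 rose and none fell, with a median of 0.72. This count depended strongly on the processing: 14 of 15 rose with scanner signals (median 3.53), and 6 of 7 with the deposited table (median 3.46). For 10 of the 15 the 12 week pool signal was not well above background on any array. Ifng, the gene of interferon gamma, had ratios of -0.71 to 1.19 at 10 days and 1.85 to 3.38 at 12 weeks. Its rise was 2.36 ± 0.396 (adjusted p = 5.28e-05), and its NOD signal rose by 3.39. A second Ifng probe changed by 1.43. At 10 days the NOD signal of Ifng was well above background on only 3 of 6 arrays. Nkg7, a granule membrane protein, rose by 2.22 ± 0.304, and a second probe changed by 1.14. The 10 day NOD signal of the reported Nkg7 probe was well above background on 4 of 6 arrays. Klrd1, a receptor chain of natural killer cells, was at least 3.59-fold higher (adjusted p = 7.54e-05). This is given as a bound because the pool signal of Klrd1 at 12 weeks was not well above background on any array. In whole islets, more cells of a type and more RNA per cell cannot be told apart.

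Of the genes of MHC class II 9 of 11 rose and none fell, with a median of 2.08. With scanner signals all 11 rose, with a median of 2.90. Cd74, the invariant chain that guards the class II groove, had ratios of -2.02 to 0.86 at 10 days and 1.88 to 2.78 at 12 weeks, a rise of 3.06 ± 0.442 (adjusted p = 1e-05). H2-Ab1, the beta chain of the I-A molecule (probe at chr17:34406059-34406118 on mm9), had ratios from -1.18 to 1.72 at 10 days and from 2.62 to 3.17 at 12 weeks. Its rise was 2.77 ± 0.432 (adjusted p = 2.39e-05), and 3 further H2-Ab1 probes changed by 1.78, 2.43 and 2.96. H2-Aa, the alpha chain of the same molecule, rose by 2.03 ± 0.361, and a second probe changed by 0.56. H2-DMb1, whose product loads peptides and whose upstream sequence is printed above, rose by 2.47 ± 0.301. In the NOD channel 10 of the 11 genes were called higher, with a median rise of 3.04, and the pool median was 1.04 higher at 12 weeks. NOD and NOD.B10 mice carry different alleles in this region, and the part of allele differences in the signal of H2 probes was not tested.

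In the class I and immunoproteasome list 5 of 17 members rose and none fell, against 11 risen with scanner signals. B2m, the light chain of every class I molecule (probe at chr2:121978401-121978460 on mm9), had ratios of -1.07 to 0.45 at 10 days and 1.31 to 2.70 at 12 weeks. It rose by 2.47 ± 0.324 (adjusted p = 3.26e-06), with a NOD change of 2.46 and a pool change of -0.01. Its 2 other probes changed by 2.39 and, at a dim one, by 0.81. Psmb8 and Psmb9, subunits of the immunoproteasome, rose by 1.94 ± 0.352 and 1.72 ± 0.241. In the NOD channel 11 of the 17 were called higher.

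The interferon gamma response showed the same direction, with 12 of 24 members risen and none fallen in the ratio, and 19 higher and 1 lower in the NOD channel. Cxcl9, the chemokine that draws Cxcr3-bearing T cells (probe at chr5:92752191-92752250 on mm9), had ratios of -1.32 to -0.28 at 10 days, with a median of -0.73, and of 1.94 to 3.16 at 12 weeks, with a median of 2.52. All 10 day mice had a ratio below 0 and all 12 week mice a ratio above 0. The rise was 3.30 ± 0.395 (adjusted p = 1.07e-06), and in the NOD channel it was 4.76. Cxcr3 itself rose by 2.47 ± 0.287 and Ccl8, a chemokine for monocytes and T cells, by 2.62 ± 0.292. Both were near background at 10 days, with the NOD signal well above it on 3 of 6 arrays for Cxcr3 and 2 of 6 for Ccl8. The 12 week pool signal of Cxcr3 was well above background on 3 of 6 arrays. Socs1, a brake on cytokine signalling, rose by 2.31 ± 0.387 and Irf8, a transcription factor of myeloid and B cells, by 2.15 ± 0.257. A second Irf8 probe changed by 0.68. Cxcl10, a relative of Cxcl9, changed by 0.45 ± 0.675 and was not called, with ratios below 0 in every mouse of both ages. Of 20 inflammatory chemokine genes 4 rose and none fell.

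Genes of the type I interferon response went the other way in part, with 5 of 24 fallen and 2 risen in the ratio. Rsad2, the antiviral enzyme viperin, had ratios of -0.60 to 3.16 at 10 days and -3.21 to -1.34 at 12 weeks, with medians of 0.59 and -1.91. Its change was -2.85 ± 0.962 (adjusted p = 0.0198), while its NOD signal was not lower (0.96, not called) and the pool signal was 3.81 higher at 12 weeks. Further Rsad2 probes changed by -1.41 and -0.65. Oasl1 changed by -2.08 ± 0.644 (adjusted p = 0.0117) and Mx2 by -2.12 ± 0.801 (adjusted p = 0.0359), with pool signals higher by 2.62 and 2.61. None of the 24 genes was called lower without 10 day replicates 2 and 4, where the median change was -0.25 against -0.29 with all mice, and none under median centring, where the median was 0.02. The count of lower genes was 6 with scanner signals, 8 with the deposited table and 7 without background correction, each with 2 higher. In the NOD channel 8 of the 24 were called higher and none lower.

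Of 16 cytokine genes 1 rose and 1 fell. Il6 was among the 12 largest falls. Its ratios ran from -2.86 to 0.38 at 10 days and from -5.08 to -3.65 at 12 weeks, so the ratio was far below 0 in every 12 week mouse. The change was -2.81 ± 0.621 (adjusted p = 0.000851), against a NOD change of -0.48 that was not called and a pool change of 2.34. Il1b, a cytokine of activated macrophages, rose by 1.20 ± 0.361 (adjusted p = 0.0098), from a 10 day median of -1.40 to a 12 week median of 0.22. One 10 day mouse, replicate 1, stood at 1.15 for Il1b, above all mice of both ages.

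In the beta cell list 22 of 30 members fell and none rose, with a median change of -1.69 against 0.01 over all genes. The median ratio of the list was 1.18 at 10 days and -0.45 at 12 weeks, so it went from above to below 0. Ins2, which with Ins1 encodes insulin in mice (probe at chr7:149864675-149864734 on mm9), had ratios from 0.79 to 2.78 at 10 days, with a median of 2.06, and from -1.69 to -0.61 at 12 weeks, with a median of -1.33. The ratio was above 0 in every 10 day mouse and below 0 in every 12 week mouse. The ratio fell by 3.08 on the log2 scale (a change of -3.08 ± 0.461, adjusted p = 1.5e-05), and a second Ins2 probe changed by -2.99. The NOD signal changed by -0.94, under the 2-fold floor, and the pool signal was 2.13 higher at 12 weeks, set against its span of 1.81 between the 10 day arrays. Ins1 fell by 2.29 on the log2 scale (SE 0.554, adjusted p = 0.00189), with a NOD change of -0.64 that was not called.

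Other genes of beta cell function followed. Trpm5, a cation channel of the insulin secretion pathway, changed by -2.78 ± 0.272 (adjusted p = 8.83e-08), with ratios of 0.93 to 1.84 at 10 days and -2.43 to -0.57 at 12 weeks. G6pc2, the islet glucose-6-phosphatase, changed by -2.58 ± 0.56. Slc2a2, the glucose transporter GLUT2, changed by -2.05 ± 0.504, and the granule protein gene Chga by -2.35 ± 0.325. Pdx1 and Mafa, transcription factors that keep beta cell identity, changed by -0.67 ± 0.146 and -0.67 ± 0.155. Their adjusted p values were 0.000731 and 0.00123, yet both stayed under the 2-fold floor and their ages overlapped. Both probes were dim, with log2 NOD signals at 10 days of 7.82 for Pdx1 and 7.09 for Mafa, against 17.7 for Ins2. The 10 day pool signal of Mafa was well above background on only 3 of 6 arrays. Over the 30 genes the NOD channel had a median change of -0.06 with 3 called higher and none lower, and the pool median was 1.87 higher at 12 weeks. The count of 22 became 10 under median centring and 27 with the scanner's processed signals, with none risen in either.

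Of 15 genes of the other endocrine cells 7 fell and none rose. Gcg, the glucagon gene of alpha cells, had ratios of 1.19 to 2.76 at 10 days and -0.53 to 0.19 at 12 weeks, a change of -2.48 ± 0.388 (adjusted p = 2.51e-05). Its second probe, which was not well above background in the pool channel on any array, changed by -0.10. Ppy, the pancreatic polypeptide gene, changed by -2.52 ± 0.62 and Sst, the somatostatin gene of delta cells, by -1.76 ± 0.376. Ppy kept a mean ratio above 0 at 12 weeks, 0.67 ± 1.08 (SD, n = 6), after 3.20 ± 0.72 at 10 days. Resp18, a protein of endocrine secretory granules, changed by -2.91 ± 0.349, with 0.10 in the NOD channel and 3.00 in the pool channel.

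Acinar genes, which report digestive enzyme cells carried along with the islets, had a median change of 0.00, with 2 of 27 risen and none fallen. Their mean ratio ran from -1.59 to 0.53 over the 10 day mice and from -1.21 to 0.75 over the 12 week mice, so the ages overlapped. The median change of this list was 0.52 under median centring. Cpa1, carboxypeptidase A1, changed by 0.02 ± 0.546, Prss2, a trypsinogen, by -0.13 ± 0.532 and Amy2a5, an amylase, by -0.50 ± 0.565, none of them called. Bhlha15, the acinar transcription factor Mist1, rose by 1.65 ± 0.487, but its second probe changed by 0.01. The part of acinar RNA in the endocrine falls was not tested.

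Further members of the 12 largest falls were Defb1, Ddit3, Cidea, Inhbb, Neat1, Reg3g, Maob and Esm1. Defb1, an antimicrobial defensin (probe at chr8:22905041-22905100 on mm9), had ratios of 0.65 to 1.76 at 10 days and -3.33 to -1.96 at 12 weeks, and a second probe changed by -3.65. Its change was -4.02 ± 0.402 (adjusted p = 1.11e-07), with 0.00 in the NOD channel and 4.02 in the pool channel. Inhbb, a subunit of activin B, changed by -3.30 ± 0.385, with a pool change of 2.52. A dim second probe of Inhbb, not well above background in the pool channel on any array, changed by -0.14. Maob, monoamine oxidase B, changed by -2.85 ± 0.359, and Esm1, a secreted proteoglycan best known from endothelium, by -2.85 ± 0.317. Reg3g, a lectin induced by inflammation, changed by -3.01 ± 0.784 and was the one called gene among 6 of the Reg family. The long noncoding RNA Neat1 changed by -3.16 ± 0.644, with 10 day mice between -0.66 and 3.49. Cidea, a lipid droplet protein, changed by -3.60 ± 0.555.

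Genes of the unfolded protein and integrated stress responses had 9 of 28 members fallen and 1 risen, with a median of -0.39. Ddit3, the transcription factor CHOP of the stress response, had ratios of 0.08 to 2.02 at 10 days and -3.12 to -1.81 at 12 weeks. Its change was -3.73 ± 0.427 (adjusted p = 6.04e-07), with a NOD change of -0.45 and a pool change of 3.28. Trib3, a target of CHOP, changed by -2.09 ± 0.507, with 10 day mice between -1.31 and 1.86 and 12 week mice between -2.57 and -1.88. A second Trib3 probe changed by -1.28. Sel1l, of the degradation machinery of the endoplasmic reticulum, rose by 2.11 ± 0.503 at the brightest probe, while 2 further probes changed by 0.29 and 0.22. None of the 28 genes was called lower in the NOD channel and 1 was called higher there. Under median centring the list had 3 falls and 2 rises.

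Metallothioneins and antioxidant genes had 4 of 18 members fallen and none risen. In the NOD channel 1 of the 18 was called lower, with a median NOD change of -0.30 and a pool change of 0.16. Mt1 and Mt2, which bind zinc and copper, changed by -2.42 ± 0.438 and -2.36 ± 0.505. Mt1 ratios lay around 0 at 10 days (median 0.00) and between -3.48 and -1.50 at 12 weeks. Gpx3, a secreted glutathione peroxidase, changed by -1.66 ± 0.268.

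In the next 2 groups, unlike the one above, more genes were called lower in the NOD channel than in the ratio. Of 14 heat shock genes 7 fell and none rose in the ratio, and 11 were called lower in the NOD channel, with a median NOD change of -1.41 against a pool change of -0.26. Dnaja1, a cochaperone of Hsp70, had ratios of 0.44 to 3.18 at 10 days and -0.75 to -0.10 at 12 weeks. Its change was -2.36 ± 0.443 (adjusted p = 0.000169), with -2.34 in the NOD channel and 0.03 in the pool channel. Dnajb1 changed by -2.16 ± 0.456 and Hsp90aa1 by -2.03 ± 0.338. A second Dnajb1 probe changed by -1.03. The mean of the list lay between 1.32 and 1.86 in 10 day replicates 1, 2, 4 and 6 and at 0.46 and 0.33 in replicates 3 and 5. At 12 weeks this mean lay between -0.19 and 0.56, so the ages overlapped. Under median centring 3 of the 14 fell.

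Of 16 duct and keratin genes 5 fell and none rose, and 6 were called lower in the NOD channel. The median NOD change of this list was -0.55, against a pool change of -0.33. Krt8, a keratin of simple epithelia, had ratios of -0.97 to 2.54 at 10 days and -2.71 to -1.40 at 12 weeks, a change of -2.72 ± 0.519, with -2.22 in the NOD channel. Its partner Krt18 changed by -1.98 ± 0.412, the tight junction gene Cldn4 by -2.60 ± 0.633 and Krt19, a duct keratin, by -1.38 ± 0.385. The ages overlapped for Cldn4 and Krt19.

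Connective tissue genes had risen ratios with a lower pool signal at 12 weeks and little change of the NOD signal. Of 28 genes of the extracellular matrix and stellate cells 20 rose and none fell, with a median of 1.60 (2.47 with scanner signals, where 23 rose and 1 fell). Col1a1, a chain of type I collagen (probe at chr11:94813075-94813134 on mm9), had ratios of -4.31 to -1.68 at 10 days, with a median of -3.09, and of 0.54 to 1.23 at 12 weeks, with a median of 0.88. The ratio was thus below 0 in every 10 day mouse and above 0 in every 12 week mouse. The rise was 3.99 ± 0.384 (adjusted p = 7.16e-08). The NOD signal changed by 0.01 and the pool signal by -3.98, and a second Col1a1 probe rose by 2.47 in the ratio. Where a change lies in the pool in this way, its SE and p do not measure the spread between control mice. Col1a2, the other chain, rose by 3.53 ± 0.348, with a pool change of -3.37, and Adamts2, which trims procollagen, by 3.09 ± 0.259, with a pool change of -2.14. A dimmer Adamts2 probe changed by 1.21. Over the list the NOD median changed by -0.09, with 1 gene called higher and 3 lower, and the pool median by -1.78. In the 10 day mice the mean of the list ran from -1.82 to -0.57, and replicates 2, 4 and 6 were the lowest.

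Cell cycle genes showed the same arrangement, with 14 of 30 risen, none fallen and a median of 0.88, against 22 risen and a median of 2.18 with scanner signals. Cdc20, an activator of the anaphase-promoting complex, had ratios of -2.26 to -0.92 at 10 days and 0.88 to 2.08 at 12 weeks. Its rise was 2.90 ± 0.258 (adjusted p = 2.67e-08), with a NOD change of -0.20 and a pool change of -3.10. Birc5, or survivin, rose by 2.74 ± 0.215, Ccnb2, a mitotic cyclin, by 2.40 ± 0.195 and the proliferation marker Mki67 by 2.37 ± 0.216. The signal of Mki67 in NOD islets changed by -0.19 between the ages, while that of the pool changed by -2.56. A second Mki67 probe changed by 0.97. None of the 30 genes was called in either direction in the NOD channel.

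Imprinted and fetal growth genes had 6 of 16 members risen and none fallen, although their median signal was lower at 12 weeks in the NOD channel (-0.75) and in the pool channel (-1.19). Igf2, a fetal growth factor, had ratios of -2.91 to -2.08 at 10 days and -0.14 to 0.09 at 12 weeks. The rise of the ratio was 2.48 ± 0.161 (adjusted p = 7.2e-10), while the NOD signal fell by 2.57 on the log2 scale (a change of -2.57, adjusted p = 1e-10) and the pool signal changed by -5.05. Mest behaved alike, with a ratio rise of 1.79 ± 0.232, a NOD change of -2.05 and a pool change of -3.84. H19, the noncoding partner of Igf2, changed by 1.61 in the ratio. Its NOD signal changed by -2.10, called lower, and its pool signal by -3.71. At 12 weeks it was well above background on 3 of 6 arrays in the NOD channel and on 0 in the pool. No fold is therefore given.

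Among 17 endothelial genes 4 rose and none fell. Vwf, von Willebrand factor, had ratios of -3.44 to -1.17 at 10 days and 0.45 to 1.43 at 12 weeks, a rise of 2.86 ± 0.387, with a NOD change of -0.53 and a pool change of -3.39. The ratios of the vascular growth factor genes Vegfd and Vegfc rose by 2.69 ± 0.202 and 1.73 ± 0.21. Their pool signals changed by -2.24 and -1.67, and their NOD signals by 0.45 and 0.05, neither called. The 12 week pool signal of Vegfd was well above background on only 2 of 6 arrays. Lyve1, a marker of lymphatic vessels, changed by -0.19 ± 0.327. Of 22 genes that are immature or disallowed in beta cells 8 rose and 2 fell. Those that rose included Mylk (2.12 ± 0.424) and the stromal chemokine Cxcl12 (1.84 ± 0.408), both with lower pool signals at 12 weeks (-2.13 and -1.68). Maob, described above among the largest falls, belongs to this list too and changed by -2.85 ± 0.359, with a pool change of 2.41. The Schwann cell list had 2 of 7 members risen and none fallen. In the NOD channel 1 of the 7 was called higher and 1 lower, with a median change of 0.01. S100b rose by 1.13 ± 0.161, with a NOD change of 0.27 that was not called and a pool change of -0.85. Ngfr, a nerve growth factor receptor of Schwann cells, rose by 2.11 ± 0.254, with 1.64 in the NOD channel. A dimmer Ngfr probe changed by 0.26. Adipoq, the adiponectin gene of fat cells, differed by 1.49 between the ages, but neither channel was well above background on any array at 12 weeks, so no fold is given. Hba-a1 and Hba-a2, alpha globins that cannot be told apart by near-identical sequence, changed by -1.57 ± 0.332 and -1.69 ± 0.327, and neither was called under median centring.

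**Figure D3:**
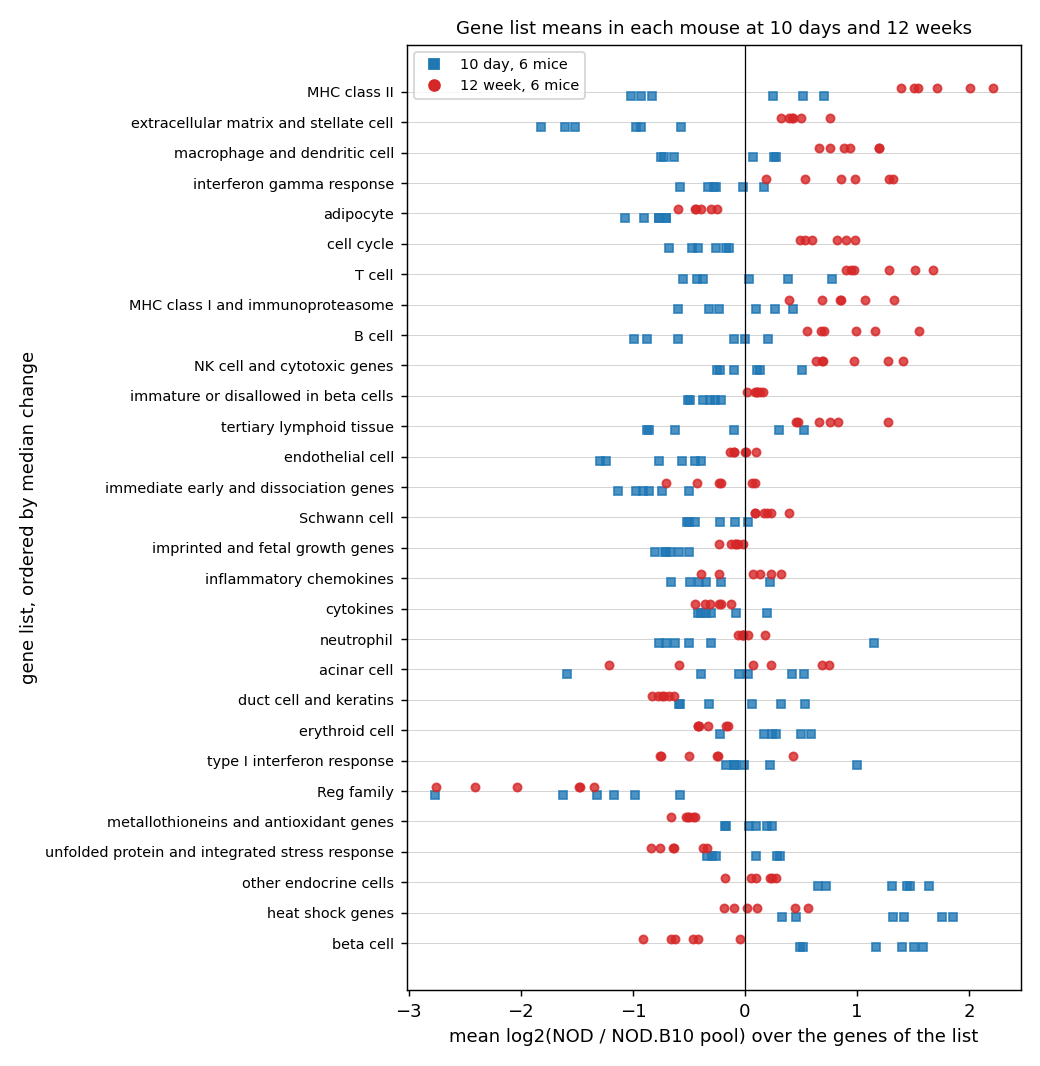
Mean log2(NOD/pool) over the genes of each of 29 lists (x axis) in each mouse, with 10 day mice as blue squares and 12 week mice as red circles, ordered by the median change of the list. MHC class II, matrix, T cell and cell cycle lists have all 12 week mice to the right of all 10 day mice, and the beta cell list has all of them to the left.

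The median SD of the ratio over all genes was 0.19 between 10 day mice and 0.14 between 12 week mice. For MHC class II the mean of the list was 0.25, -0.83, 0.52, -0.93, 0.71 and -1.02 in 10 day replicates 1 to 6 and lay between 1.39 and 2.21 at 12 weeks. For the T cell list it lay between -0.55 and 0.78 at 10 days and between 0.90 and 1.68 at 12 weeks. Beta cell means were 0.52 and 0.49 in 10 day replicates 2 and 4, against 1.17 to 1.59 in the other four. The lists of MHC class II, matrix, cell cycle and beta cell genes kept 12 week mice apart from all 10 day mice. So did many other lists, among them those of T cells, B cells, duct cells, endothelial cells and adipocytes. In others, such as the acinar and type I interferon lists, the ages overlapped. Without 10 day replicates 2 and 4 the counts were 9 of 11 risen for MHC class II, 20 of 28 for matrix, 14 of 30 (with 1 fallen) for the cell cycle, 10 of 27 for T cells and 25 of 30 fallen for beta cells.

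Immediate early genes, which respond to handling and dissociation of tissue, had 8 of 26 members risen and 1 fallen. Dusp2, a phosphatase of activated lymphocytes, rose by 2.87 ± 0.393, Fos by 1.97 ± 0.527 and Egr1 by 1.69 ± 0.33. The NOD signal of Egr1 changed by 0.04. Genes often taken as references changed less, Gapdh by -0.05 ± 0.154, Actb by 0.49 ± 0.138 and Hprt by -0.50 ± 0.167, none called. Malat1 changed by 1.31 ± 0.454 at its brightest probe and by -0.06, 0.08 and 0.34 at 3 others. Deaf1, a regulator of peripheral tissue antigens, changed by 0.46 ± 0.53 and was not called.

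Set among the 4 ages, as a description, the median ratio of the MHC class II list was 0.01 at the youngest age, 0.03 in 4 week mice, 1.73 at 12 weeks and 1.86 in the oldest mice. That of the matrix list was -1.18 at 10 days and already 0.26 at 4 weeks. The beta cell list moved from 1.18 at 10 days to -0.77 at 4 weeks and stood at -0.45 at 12 weeks. The cell cycle list was at -0.31 and -0.27 at the 2 younger ages and at 0.58 at 12 weeks.

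**Figure D4:**
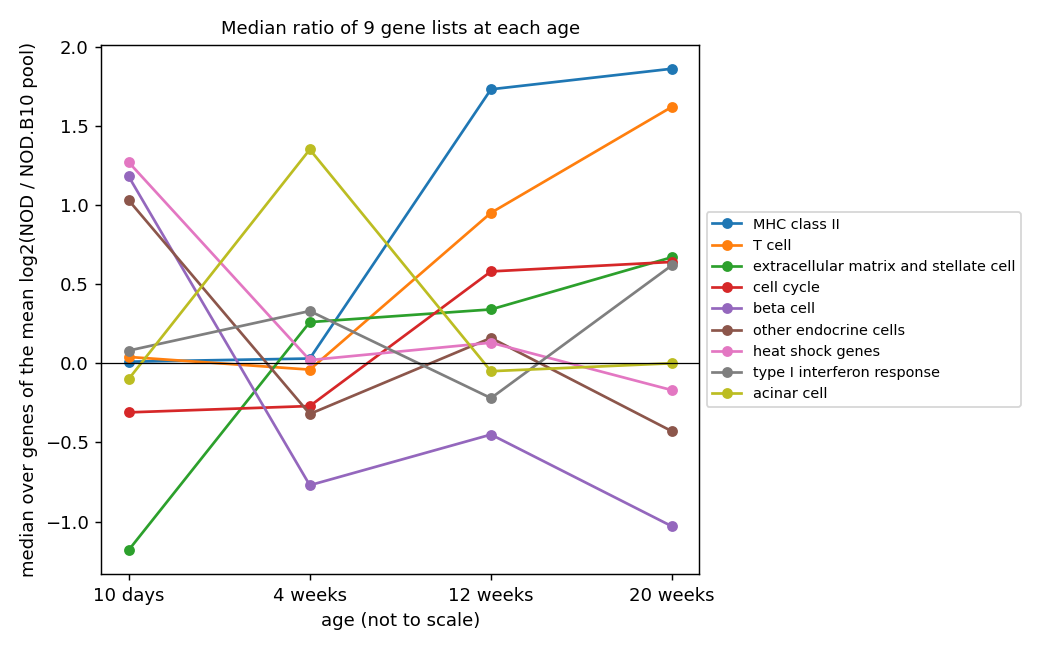
Median over the genes of a list of the mean log2(NOD/pool) (y axis) at each of the 4 ages (x axis, not to scale) for 9 lists, 6 mice per age. MHC class II and T cell lists stay near 0 until 4 weeks and are above 0 at 12 weeks, while the matrix and beta cell lists differ between 10 days and 4 weeks.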

How the data were processed

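Islet RNA (300 ng per sample) was measured on 2-colour Agilent arrays read with Feature Extraction 10.7.3.1, per the file headers, which place the probes on mm9. The deposited intensity values are mean spot and background brightness as scanned, and processed signals that the scanner software had background-subtracted and dye-normalized, per the file headers. The deposited log10 ratios are those of the processed signals, per the file headers. The authors' value table holds log2 ratios of Cy5 over Cy3 with unstated processing; they followed the scanner's ratios closely, ran in the same direction, and had column medians of -0.182 to 0.0868, so they were not centred.

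From the mean signals, limma 3.58.1 (R 4.3.3) applied normexp with an offset of 50, which shrinks differences of dim probes, and loess within each array. Of 41174 probes, 25910 were kept that were well above background in either channel on at least 6 of the 24 arrays, and the brightest probe stood for each of 18071 genes. Names came from the RefSeq table of GRCm38.p6 (27050 probes by accession, 4154 by current and 589 by older symbol) or else from the files (9381). The model (lmFit, eBayes, Benjamini-Hochberg over all genes) was fitted to all 24 arrays with age as the factor. Channels were scaled between arrays (Aquantile). The 12 arrays of this comparison limit the precision. The labels give each NOD sample as 1 mouse, and were read as giving 1 pool of controls at each age. Sharing a number did not pair mice: the correlations of their deviations ran from -0.32 to 0.13.

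Named genes are the 12 largest rises and falls without overlap, up to 3 called members per list with the largest change, and a fixed set; single-gene results of a few of these, and of 2 genes in the closing section, are not reported here. The members, the 29 lists and the tests were chosen with earlier results of these data known. A probe with no signal over background in a group is given as a bound, or with no fold. Alternatives covered background correction, normalization, filters, probe choice, blocks, weights and left-out mice.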

Additional observations from a re-analysis of the deposited data

Results flagged for a closer look

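In 11 of 284 groups of 6 mice looked at, the named genes and list means at each age, 1 mouse stood apart from the other five by Dixon's criterion, where chance gives about 1 in 20. At 12 weeks replicate 4 stood apart for Wdfy4 at 4.1 (others 2.84 to 3.16), for Lyl1 at 2.9 (0.88 to 1.6) and for Lpl, lipoprotein lipase, at -0.47 (0.38 to 0.7). Replicate 2 stood apart for Cidea at -2.14 (-2.88 to -2.73), for Cldn4 at -1.35 (-2.05 to -1.82) and for Cd3e at -0.09 (0.17 to 0.27). Replicate 1 had an Adamts2 ratio of 0.02 (0.36 to 0.53). At 10 days replicate 1 stood above the others for Il1b at 1.15 (-1.63 to -1.39), for Ccl8 at 0.84 (-0.49 to -0.08) and for the mean of the 4 neutrophil genes, also at 1.15 (-0.77 to -0.3). Replicate 2 at 10 days had a type I interferon list mean of 1 (-0.17 to 0.22).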

How the results depend on the processing

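The ratio gave 1576 called genes. The totals were 4680 with the scanner's processed signals (1538 shared), 4105 with the deposited value table (1528 shared) and 7791 without the fold floor; for the first and second of these the cause was not tested, and the last drops a criterion. The other alternatives gave 1060 (limma treat) to 2005 (no background correction) genes, and leaving out 1 mouse gave 1457 to 1676. Median centring gave 1125 rises and 258 falls. Without 10 day replicates 2 and 4, chosen after seeing the data, 1498 genes were called and 1308 were shared. The NOD channel gave 911 to 1145 genes with 1 mouse left out and 1049 with quantile normalization. With the replicate block 1573 genes were called for the ratio and 1007 for the NOD channel; the numbers share no source, and 0 of 6 young mice correlated best with their own number. Slide as a random block gave 1575 genes (correlation -0.0924). Scan date could not be used, since all arrays carry 1 day.

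The 99 called named genes kept their direction in all 24 alternatives and 75 stayed called in each; Mx2, Malat1, Lpl, Nr5a2 and Rsad2 lost the call most often. Only genes that were not called changed sign. Prss2 was 0.13 with scanner signals, 0.41 under median centring, 0.05 with the deposited table and with array weights, 0.21 without 10 day replicates 2 and 4, and -0.44 to 0.13 with 1 mouse left out. Gapdh was 0 with scanner signals, 0.34 under median centring and -0.12 to 0.03 with 1 mouse left out. Amy2a5 was 0.02 under median centring. Cpa1 was -0.11 with slide as a block and -0.26 to 0.29 with 1 mouse left out. Lyve1 was -0.31 to 0.1 with 1 mouse left out. The pool channel had 39.3% to 48% of probes over background, which limits the ratios of dim genes.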

Other observations

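Genes of the complement system, a list chosen after its values were seen and so given with no test of the list, rose in 10 of 13 cases and fell in none, with a median change of 1.81. C3, the central component, rose by 3.01 ± 0.613 (adjusted p = 0.000401 in limma), C4b, its classical pathway partner, by 2.29 ± 0.476, and C1qa, a chain of the recognition molecule, by 2.04 ± 0.192. The median change was 1.88 in the NOD channel, where 11 of the 13 were called higher, and 0.21 in the pool channel.

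Of 19 enzymes of cholesterol synthesis, also chosen after their values were seen, 5 fell and 1 rose. Hmgcs1, the synthase at the head of the pathway, changed by -2.56 ± 0.246, Msmo1 by -2.44 ± 0.274, Fdps by -1.79 ± 0.122 and Fdft1 by -1.16 ± 0.135. None of the 19 was called in the NOD channel.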
